A study of Homo sapiens with 6 samples.

Results

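Imprinted genes followed across the 6 libraries of the study were MEST, IGF2, DLK1, NNAT, CDKN1C, PEG10, PEG3, SNRPN, H19 and MEG3. They are 10 of the 32862 genes in the table, taken by gene symbol, and each symbol matched 1 row. The set was selected on the measured KO and WT levels of this table, in which MEST stood out, so its differences between KO and WT are described without a test. The cells were SH-SY5Y, a human line grown from a neuroblastoma (a childhood tumour of sympathetic nerve precursors). Poly(A) RNA was sequenced from 3 OTULIN KO libraries, whose cells lost the ubiquitin-cleaving enzyme OTULIN through CRISPR-Cas9 editing, and from 3 WT libraries of the unedited line. All 6 libraries were untreated and carry the same batch number in the labels. The sources used here do not say whether the KO line is a single clone, or whether replicates came from separate cultures. The p-values below therefore reflect the scatter among these 6 libraries, which may be technical.

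An imprinted gene is expressed mainly from the copy inherited from the mother or mainly from the copy inherited from the father, according to DNA methylation laid down in the germ line. Several such genes act on growth before birth: paternally expressed members such as IGF2 and DLK1 tend to promote it, and maternally expressed members such as CDKN1C and H19 tend to restrain it. Many lie in clusters that share 1 control region, and long noncoding RNAs such as H19 and MEG3 are made from the opposite parental copy to their protein-coding neighbours. In the embryo and its nervous system MEST, PEG3, NNAT and SNRPN are also well known as paternally expressed genes. Gene-level counts do not separate the parental copies, so imprinting itself was not measured.

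Within the set MEST alone was high in KO cells, and MEG3 alone was near 0 in WT cells as well. The start regions of these genes are therefore shown, from RefSeq (GRCh38.p14), each running from 250 bases before to 50 bases after an annotated start, with CpG sites (the bases that are methylated in imprinting) in capitals. MEST has 2 groups of starts on the plus strand of chromosome 7. The upstream window is chr7:130485925-130486224, the downstream window is chr7:130491808-130492107, and the MEG3 window is chr14:100825858-100826157, also on the plus strand.
MEST, upstream start: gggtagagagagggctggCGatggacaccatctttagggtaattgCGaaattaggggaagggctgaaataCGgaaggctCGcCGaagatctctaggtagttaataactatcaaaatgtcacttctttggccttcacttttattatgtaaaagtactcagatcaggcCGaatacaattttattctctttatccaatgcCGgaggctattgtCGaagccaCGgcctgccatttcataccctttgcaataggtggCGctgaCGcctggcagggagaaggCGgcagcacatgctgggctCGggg
MEST, downstream start: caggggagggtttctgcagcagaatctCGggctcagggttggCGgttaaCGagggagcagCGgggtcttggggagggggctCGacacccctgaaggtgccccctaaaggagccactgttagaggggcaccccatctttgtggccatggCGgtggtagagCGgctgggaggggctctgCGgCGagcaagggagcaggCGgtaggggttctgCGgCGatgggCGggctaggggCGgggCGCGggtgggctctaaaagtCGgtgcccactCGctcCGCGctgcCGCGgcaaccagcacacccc
MEG3: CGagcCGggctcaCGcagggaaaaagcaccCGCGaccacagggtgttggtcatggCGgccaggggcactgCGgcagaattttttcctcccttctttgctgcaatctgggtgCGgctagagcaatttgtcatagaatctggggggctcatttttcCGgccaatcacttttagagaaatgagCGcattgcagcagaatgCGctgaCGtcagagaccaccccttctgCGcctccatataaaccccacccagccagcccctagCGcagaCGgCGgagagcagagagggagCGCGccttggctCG
The upstream MEST window shown held 13 CpG sites, the downstream window shown 22 and the MEG3 window shown 19. Other MEST windows held 22 sites (chr7:130486097-130486396, upstream), 16 (chr7:130491079-130491378) and 25 (chr7:130491835-130492134). Other MEG3 windows held 17 and 18. The median over all 35116 RefSeq windows of this length was 14, with quartiles of 4 and 28. All 3 windows shown thus lay between the quartiles, and the gene-level counts do not tell which MEST start was in use. RefSeq start windows were matched for 4 of the 10 genes: MEST, MEG3, H19 and SNRPN.

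MEST and H19 also host microRNAs, short RNAs that pair with messenger RNAs through a seed at bases 2 to 8. The MIR483 row lies inside IGF2, which also differed between KO and WT libraries, and MEG3 hosts MIR2392 and MIR770, but these are not shown. Those of MEST and H19 are shown because each hairpin lies inside a gene whose own transcript differed between KO and WT libraries. The seed is in capitals.
hsa-miR-335-5p (MEST): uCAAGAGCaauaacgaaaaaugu
hsa-miR-335-3p (MEST): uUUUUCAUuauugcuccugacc
hsa-miR-675-5p (H19): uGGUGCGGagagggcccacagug
hsa-miR-675-3p (H19): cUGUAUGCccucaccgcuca
The miR-335 hairpin lies at chr7:130496111-130496204 on the plus strand, inside MEST, and the miR-675 hairpin at chr11:1996759-1996831 on the minus strand, inside H19 (GRCh38.p14). No seed is shared among these 4. Poly(A) libraries do not measure mature microRNAs. The row for the MIR675 precursor held no count in any KO library and 1 count in each WT library.

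The libraries differed widely in depth, and this bears on every value below. Total counts were 725827 to 862932 in the KO libraries and 61772795 to 64352333 in the WT libraries, a ratio of means of 78.5. Genes with at least 1 count numbered 2306 to 2567 in KO libraries and 27453 to 27958 in WT libraries. The 4 loci inside 18S ribosomal RNA genes took 19.5% to 36.5% of KO counts and 0.438% to 0.823% of WT counts. Levels are given as CPM (each count divided by the library total and scaled as usual), where 1 count is worth 1.16 to 1.38 CPM in KO libraries. Between genes they are compared as FPKM, which the authors also scaled by gene length. OTULIN had no count in any KO library, against 1682, 2101 and 2155 counts in the WT libraries, or at least 25.2-fold lower CPM. That bound, and each "at least" below, sets 3 counts over the 3 KO libraries (1.25 CPM) against the WT mean, and it covers counting error only. A zero is common here. In all, 10820 genes passed the filter for testing (an average over all 6 libraries of 1 FPKM or more), and of these 7716 (71.3%) had no count in any KO library. With the WT libraries thinned to the KO depth, 892 genes were called higher and 9160 lower in KO cells, against 826 and 9519 at full depth. Without the 18S loci the counts were 826 and 9517.

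MEST was the only one of the 9 tested genes of the set with a higher level in KO than in WT cells, and it ranked high there. MEST (ENSG00000106484, chr7:130486171-130506292, plus strand, hg38) encodes a membrane protein with an alpha/beta hydrolase fold, made from the paternal copy in mesoderm and brain of the embryo. It had 2613, 2404 and 2521 counts in the KO libraries, against 408, 564 and 522 counts in the WT libraries. KO libraries thus held more MEST reads outright, although they were far shallower. At its WT share, a KO library of this depth would hold 5.75 to 6.84 MEST counts. Its level was 3162 ± 348 CPM in KO and 7.92 ± 1.19 CPM in WT cells (SD, n = 3 each), a 399-fold difference. Per length it stood at 605, 521 and 659 FPKM in KO libraries, against 1.26, 1.68 and 1.62 FPKM in WT libraries. The 3 KO values lay close together and far above all 3 WT values. In the fit over all tested genes the log2 difference was 8.24 (SE 0.16). Ranked by mean FPKM over all genes, MEST stood at place 48 in KO cells, against place 11360 in WT cells.

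The fold for MEST did not rest on 1 library: leaving out each library in turn gave 367-fold to 423-fold. Its log2 difference was 8.64 after WT counts were thinned to match KO depth, and 8.25 without the 18S loci. Without a scaling factor beyond the library total its log2 difference was 8.64, and with median-ratio factors it was 7.68. These scalings shift all genes: among the 1241 tested genes with at least 10 counts in every KO library, a set picked through its KO counts, the median log2 difference was 0.91 in the edgeR fit with TMM factors, 0.34 with median-ratio factors and 1.31 with library totals alone. Relative to that median, MEST stood 7.33 higher in that fit and 7.34 and 7.33 higher under the other 2 scalings. MEST was 1 of 115 tested genes whose summed raw count was larger in KO than in WT cells. MEST has a processed copy on chromosome 6, MESTP1, with which reads can be shared. MESTP1 held no count in KO libraries, against 4, 0 and 0 counts in WT libraries.

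**Figure D1:**
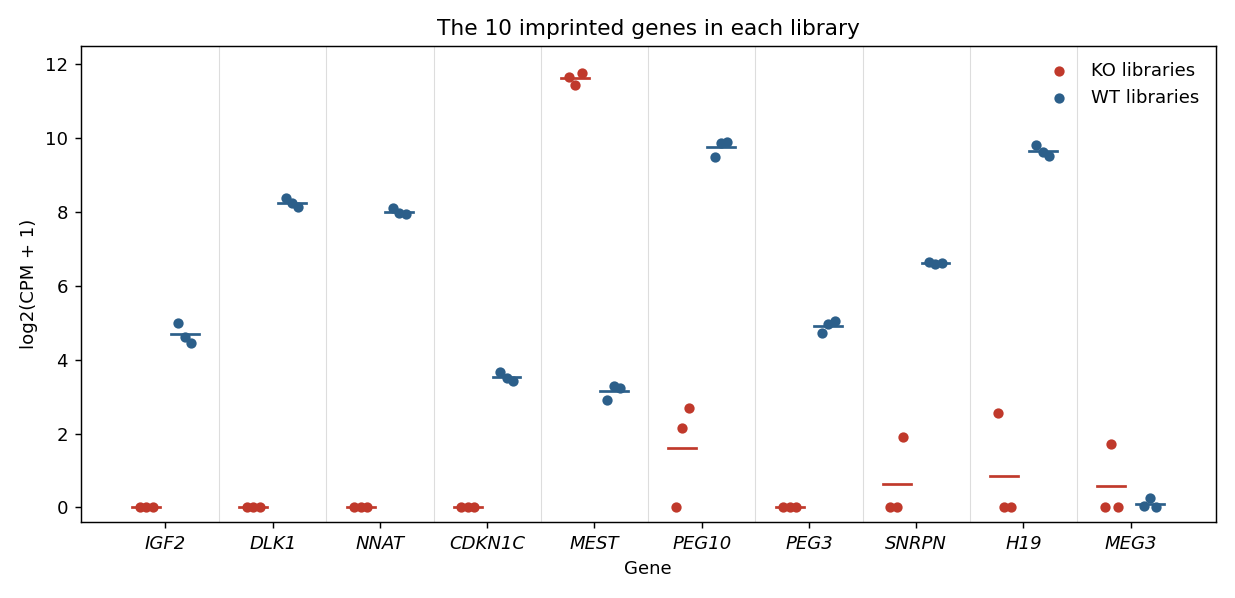
Level of each of the 10 genes, as log2(CPM + 1), in the 3 KO libraries (red, left of each pair) and the 3 WT libraries (blue, right), with points for libraries and a bar for the mean of the 3 points. MEST sits above 11 in all KO libraries and near 3 in WT libraries, the other tested genes sit lower in every KO than in any WT library, at 0 or at a few counts, and MEG3 had at most 12 counts in any library.

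The growth factors and growth-promoting ligands IGF2 and DLK1 had no count in KO cells. IGF2 (ENSG00000167244, chr11:2129112-2158391, minus strand) encodes an insulin-like growth factor. It had no count in any KO library, against 1913, 1515 and 1295 counts in the WT libraries. WT cells thus held IGF2 at 25.1 ± 5.07 CPM (SD, n = 3), and the KO level was at least 20.1-fold lower. At the WT share, a KO library would hold 18.2 to 21.7 IGF2 counts. DLK1 (ENSG00000185559, chr14:100725705-100738224, plus strand) encodes a cell-surface protein of the Notch-ligand kind that is also shed from cells, and in the sympathetic nervous system it marks chromaffin-lineage cells. It had no count in KO libraries, against 20806, 19597 and 17190 counts in WT libraries. DLK1 stood at 306 ± 28.1 CPM in WT cells (SD, n = 3), so the KO level was at least 244-fold lower. Both ligands were highest in WT replicate 1 and lowest in WT replicate 3, and neither overlapped the KO libraries.

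CDKN1C, a brake on growth, and NNAT, a neuronal membrane protein, were likewise without a KO count. CDKN1C (ENSG00000129757, chr11:2883213-2885771, minus strand) encodes an inhibitor of cyclin-dependent kinases and is made from the maternal copy. It had no count in KO libraries, against 736, 667 and 602 counts in WT libraries. At 10.7 ± 1.07 CPM in WT cells (SD, n = 3) it gave the weakest bound among the genes at 0, at least 8.51-fold lower in KO cells. A KO library would hold only 7.73 to 9.19 CDKN1C counts at the WT share, so smaller differences were not detectable at this depth. NNAT (ENSG00000053438, chr20:37521206-37523690, plus strand) encodes neuronatin, a small protein of the endoplasmic reticulum membrane in neurons. It had no count in KO libraries, against 17081, 16074 and 15263 counts in WT libraries. NNAT stood at 257 ± 15.2 CPM in WT cells (SD, n = 3) and was at least 206-fold lower in KO cells.

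The retrotransposon-derived gene PEG10 and the zinc-finger gene PEG3 were lower in KO cells. PEG10 (ENSG00000242265, chr7:94656325-94669695, plus strand) encodes a capsid-like protein descended from a retrotransposon. It had 0, 3 and 4 counts in the KO libraries, against 44651, 60469 and 59124 counts in the WT libraries. A KO library would hold 633 to 752 PEG10 counts at the WT share. Its level was 2.996 ± 2.787 CPM in KO and 872 ± 133 CPM in WT cells (SD, n = 3 each). Over pooled counts the ratio was 299-fold lower in KO cells, with an exact 95% interval of 145 to 743 for counting error. The ratio of mean CPM was 291-fold lower in KO cells with all libraries, 194-fold without KO replicate 1 and 501-fold without KO replicate 3. PEG3 (ENSG00000198300, chr19:56810077-56840728, minus strand) encodes a zinc-finger protein linked in mice to maternal behaviour and growth. It had no count in KO libraries, against 1569, 1953 and 1983 counts in WT libraries. PEG3 stood at 29.2 ± 3.58 CPM in WT cells (SD, n = 3), so its KO level was at least 23.4-fold lower. The table's PEG3 overlaps ZIM2 over 30652 bases of the same strand, so the counting could split reads between them, and ZIM2 had no KO count and 31, 24 and 19 WT counts.

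SNRPN and H19 each had reads in a single KO library. SNRPN (ENSG00000128739, chr15:24823637-24978723, plus strand) encodes a Sm protein of the splicing machinery made in brain, and its start region is the imprinting centre of the Prader-Willi and Angelman region. It had 0, 0 and 2 counts in the KO libraries, against 6139, 6166 and 6006 counts in the WT libraries. With so few KO counts the pooled ratio was 117-fold lower in KO cells with an exact 95% interval of 32.3 to 963. Without KO replicate 3 the gene was at 0 in KO cells. SNRPN also shares 22864 bases with SNURF, made from the same strand, which had no KO count and 66, 106 and 78 WT counts. SNRPN averaged 0.919 ± 1.59 CPM in KO and 97.2 ± 1.43 CPM in WT cells (SD, n = 3 each), the smallest relative spread of the set in WT cells.

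H19 (ENSG00000130600, chr11:1995166-2004552, minus strand) is a maternal long noncoding RNA and was the most abundant of the 10 genes per length in WT cells. It had 4, 0 and 0 counts in the KO libraries, against 56355, 50588 and 45563 counts in the WT libraries. A KO library would hold 588 to 699 counts of it at the WT share. The pooled ratio was 485-fold lower in KO cells, with an exact 95% interval of 190 to 1782. Without KO replicate 1 H19 was at 0 in KO cells, and without KO replicate 2 or 3 the ratio of mean CPM was 328 against 492 with all libraries. MEG3 (ENSG00000214548, chr14:100779410-100861031, plus strand), the maternal long noncoding RNA of the DLK1 cluster, had 0, 2 and 0 counts in KO libraries, against 2, 12 and 0 counts in WT libraries. MEG3 is thus at or near 0 in both genotypes, was below the level for testing, and no fold is given.

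Over the set, 9 of the 10 genes were tested. The WT libraries alone carried 8 of them past the filter on the average over 6 libraries, and MEST passed only through its KO values. All 9 were called by edgeR, as were 95.6% of all tested genes. Of these 1 was called higher in KO cells (7.63% of all tested genes were) and 8 were called lower (88% of all tested genes were). KO and WT values did not overlap for these 9 genes, as for 96.2% of all tested genes. KO was the higher side for 1 of them, as for 8.15% of all tested genes, and the lower side for 8, as for 88%. Since the genes were chosen with these values known, nothing is read from the counts. No KO count was found for 5 genes (71.3% of all tested genes had none), and the other 4 beside MEST had 2 to 7 KO counts in all. The 9 genes other than MEST held 15 counts over the 3 KO libraries, against 453319 counts over the 3 WT libraries. The median log2 difference of the tested members was -11.41, against -12.42 for all tested genes, and for genes at 0 the fitted value depends on the prior count. With such genes set at their bound, the median log2 ratio of mean CPM was -6.73 for the tested members and -4.55 for all tested genes. For all these genes, fewer cells of a type that expresses the gene and less RNA per cell cannot be told apart.

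The share of the library given to the 10 genes together was somewhat larger in KO libraries, and a different gene made it up. The set took 0.323%, 0.279% and 0.348% of counts in the KO libraries, against 0.241%, 0.245% and 0.239% in the WT libraries. MEST made up 99.8% to 99.9% of those counts in KO libraries and 0.273% to 0.358% in WT libraries.

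Per length, the WT order of levels was H19, NNAT, PEG10, DLK1, SNRPN, CDKN1C, IGF2, PEG3, MEST and MEG3. H19 averaged 214 ± 23.2 FPKM, NNAT 177 ± 10.6 FPKM and PEG10 120 ± 18.2 FPKM (SD, n = 3 libraries). DLK1 averaged 53.4 ± 4.97 FPKM and SNRPN 26.1 ± 0.40 FPKM. A gap then separated these 5 genes from a low group, with CDKN1C at 3.92 ± 0.40 FPKM, IGF2 at 3.22 ± 0.65 FPKM, PEG3 at 2.74 ± 0.33 FPKM and MEST at 1.52 ± 0.23 FPKM. CDKN1C and IGF2 overlapped in their WT values, as did IGF2 and PEG3, and no other neighbours in the order did. MEST was thus ninth of 10 in WT cells and ahead of all the others in KO cells, at 595 ± 69.7 FPKM. WT replicate 1 was the highest of the 3 for H19, NNAT, DLK1, SNRPN, IGF2 and CDKN1C and the lowest for PEG10, PEG3 and MEST.

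**Figure D2:**
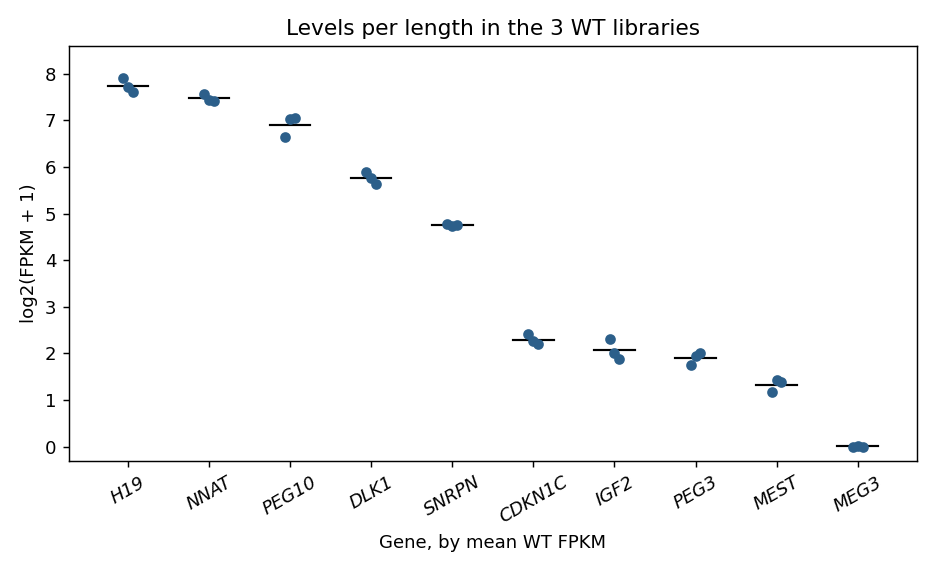
Level per length of the 10 genes in the 3 WT libraries, as log2(FPKM + 1), ordered by mean WT FPKM, with points for libraries and a line for the mean of the 3 points. H19, NNAT, PEG10, DLK1 and SNRPN stand clear of the low group, in which CDKN1C, IGF2 and PEG3 overlap.

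None of the 14 genes within 250 kb of MEST on chromosome 7 had a KO count. Of all 32862 genes in the table, 29202 (88.9%) had no KO count, so this is close to the share over the whole table. All 32862 have a count in some library, so each of the 14 had to have a WT count, and several had only a few. COPG2, a coat protein of vesicle transport that overlaps the end of MEST by 55 bases on the opposite strand, had no KO count, against 5588, 6629 and 6370 counts in WT libraries. It was called lower by edgeR and its KO level was at least 78.9-fold lower. CEP41, a centrosome protein 44.9 kb away, also had no KO count, against 3800, 4786 and 4455 counts in WT libraries, and was at least 55.3-fold lower. Per length, both neighbours stood above MEST in WT cells, COPG2 at 21.9 ± 1.68 FPKM and CEP41 at 4.49 ± 0.46 FPKM (SD, n = 3). CPA4, a carboxypeptidase gene of the imprinted cluster, had no KO count and 303, 205 and 266 counts in WT libraries, or at least 3.29-fold lower. MESTIT1, the antisense RNA that overlaps the start of MEST by 4863 bases, had no KO count, against 0, 0 and 6 counts in WT libraries. The strand setting of the counting is not given in the sources used here, so reads of MEST and its antisense partner cannot be told apart. The intronic RNA COPG2IT1 had 78, 57 and 56 WT counts, CPA1 had 22, 31 and 13, and KLF14, a transcription factor gene, had 8, 0 and 0. The other 7 genes of the window had at most 64 counts in any WT library.

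**Figure D3:**
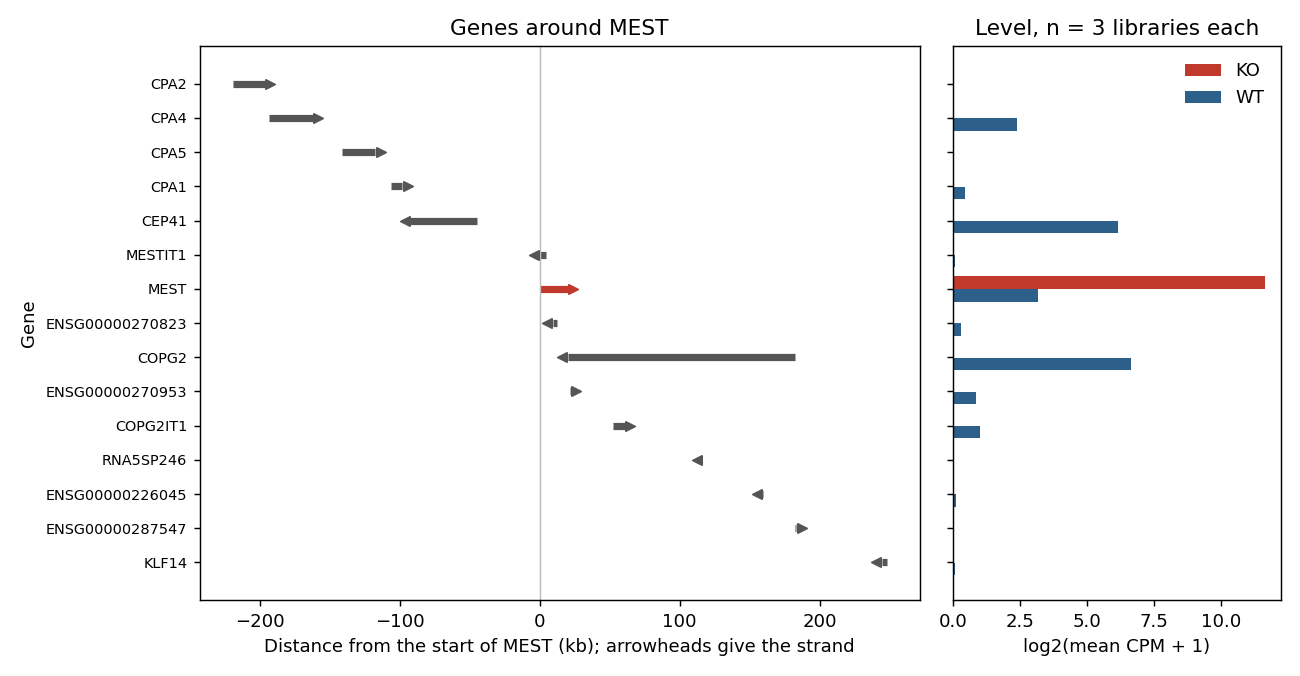
Left, the genes within 250 kb of MEST that had a WT count, by distance from the start of MEST in kb, with arrowheads for the strand. Right, their mean level as log2(mean CPM + 1) in KO (red, upper bar) and WT libraries (blue, lower bar, n = 3 each), where MEST carries the only KO bar.

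In the cluster on chromosome 14, RTL1, a paternally expressed retrotransposon-derived gene, had 6, 0 and 0 counts in KO libraries, against 20728, 18045 and 16197 counts in WT libraries. WT levels per length were 49.6 ± 6.32 FPKM for RTL1 and 53.4 ± 4.97 FPKM for DLK1, and their libraries overlapped. The maternal RNAs of this cluster were near 0 in WT cells, with MEG3 at 0.0027 ± 0.0036 FPKM, MEG8 at 0.012 ± 0.0057 FPKM and MEG9 at 0.022 ± 0.030 FPKM. DIO3, a thyroid hormone deiodinase at the far end, averaged 1.16 ± 0.19 FPKM in WT cells and had no KO count. RTL1 and MEG8 overlap by 20666 bases on opposite strands, so their reads may not be separable. RTL1, DIO3, MEG8 and MEG9 were chosen for mention after their values were seen.

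In the chromosome 11 cluster, H19 and IGF2 are made from opposite parental copies under a shared control region. H19 was at 214 FPKM and IGF2 at 3.22 FPKM in WT cells, so the maternal RNA far exceeded its paternal neighbour per length. The 4 H19 counts in KO replicate 1 were the only KO counts of these 2 genes. NNAT lies wholly inside BLCAP on the opposite strand, over 2485 bases, and the host gene did have KO counts. BLCAP had 429, 422 and 417 counts in the KO libraries, against 4845, 5294 and 5252 counts in the WT libraries, and NNAT had none in KO cells. As the strand setting is not given, reads inside NNAT could be counted for either gene.

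Among other imprinted genes, most of those tested were called lower in KO cells and 3 were called higher. The list holds 82 further imprinted genes, 67 of them in the table and 25 tested. By edgeR's quasi-likelihood test with Benjamini-Hochberg adjustment over all tested genes, 21 of 25 (84.0%) were lower, 3 (12.0%) were higher and 1 was not called, against 88% lower and 7.63% higher among all tested genes. No KO count was found for 17 of the 25 (68.0%), against 71.3% of all tested genes. The median log2 difference was -12.78, against -12.42 for all tested genes, and with genes at 0 set at their bound the median log2 ratio of mean CPM was -4.67, against -4.55. These shares lie near those of all tested genes.

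BLCAP, a small membrane protein gene, was 6.50-fold higher, at 531 ± 42.8 CPM in KO and 81.7 ± 3.60 CPM in WT cells (SD, n = 3 each; log2 difference 2.30, SE 0.09, edgeR adjusted p 7.4e-06). GNAS, which encodes the stimulatory G-protein alpha subunit and further imprinted products, was 3.51-fold higher, at 6847 ± 1572 CPM in KO and 1948 ± 96.4 CPM in WT cells (SD, n = 3 each; log2 difference 1.41, SE 0.15, edgeR adjusted p 8.4e-05). UBE3A, a ubiquitin ligase expressed from the maternal copy in neurons, stood at 230 ± 13.03 CPM in KO and 110 ± 4.26 CPM in WT cells (SD, n = 3 each; log2 difference 0.67, SE 0.09, edgeR adjusted p 0.00028). The 3 KO libraries lay above the 3 WT libraries for each of these genes. UBE3A lost its call with median-ratio factors (log2 difference 0.12, edgeR adjusted p 0.30) and with DESeq2 (adjusted p 0.26). Against the median of the 1241 well-counted genes, BLCAP stood 1.39 and GNAS 0.50 higher on the log2 scale, and UBE3A stood at -0.24. MEST at 7.33 was far beyond all 3.

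IGF2R, the receptor that carries IGF2 to the lysosome, had 0, 4 and 8 counts in KO libraries and was called lower. Its level was 5.22 ± 5.53 CPM in KO and 116 ± 1.06 CPM in WT cells (SD, n = 3 each), 22.1-fold lower (log2 difference -4.92, SE 0.39, edgeR adjusted p 2.6e-05). Without KO replicate 1 it was 14.8-fold lower and without KO replicate 3 it was 49.8-fold lower. DDC, the decarboxylase of dopamine synthesis, INPP5F, an inositol phosphatase, and CD81, a tetraspanin, were called lower with no KO count. DDC was at least 156-fold lower, INPP5F at least 147-fold and CD81 at least 146-fold. HM13, a signal peptide peptidase gene, was the gene not called, with 2, 71 and 89 counts in KO libraries (log2 difference -1.12, SE 0.68, edgeR adjusted p 0.15). Without KO replicate 1 it was called lower (log2 difference -0.54, edgeR adjusted p 0.0076), as it was with median-ratio factors (-1.71, edgeR adjusted p 0.042).

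Sorted by the parental copy usually expressed, 8 of 8 tested paternal genes were lower and 7 of them had no KO count. Of 10 tested maternal genes, 8 were lower and 2 higher, and 5 had no KO count. Of the 7 whose imprinting depends on isoform or tissue, 5 fell, 1 rose and 1 did not pass the test. Among all tested genes 88% were lower, 7.63% were higher and 71.3% had no KO count. The difference between paternal and maternal genes was not tested. MEST itself is a paternal gene and is not in these counts.

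**Figure D4:**
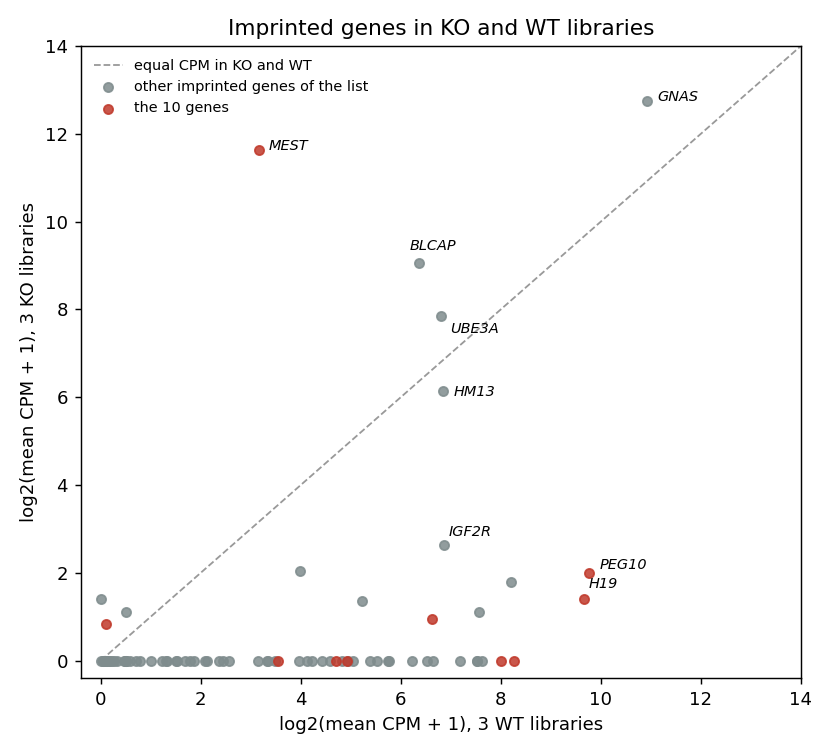
Mean level in the 3 KO libraries (vertical) against the 3 WT libraries (horizontal), as log2(mean CPM + 1), for the 10 genes (red) and the 67 other imprinted genes in the table (grey), with a dashed line at equal CPM. MEST stands at the upper left, GNAS, BLCAP and UBE3A stand above the line, MEG3, MEG8 and SLC22A3 with 2 to 4 KO counts lie above it near the origin, and most other genes lie along the bottom at 0 in KO libraries.

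Genes that read or maintain imprints changed in both directions. The list of 42 chromatin regulators had 31 tested genes, of which 22 (71.0%) were lower, 6 (19.4%) were higher and 3 were not called by edgeR, against 88% lower and 7.63% higher among all tested genes. In the list, 13 of the 31 (41.9%) had no KO count, against 71.3% of all tested genes. YY1, a zinc-finger factor, was 8.85-fold higher at 1264 ± 150 CPM in KO and 143 ± 5.93 CPM in WT cells (SD, n = 3 each, log2 difference 2.75, edgeR adjusted p 4.04e-06). EED, a core Polycomb protein, was 5.78-fold higher, MBD2, which binds methylated CpG, 3.86-fold higher, and CTCF, the insulator factor of the H19 control region, 3.27-fold higher. Relative to the median of the well-counted genes, YY1 stood 1.83, EED 1.205, MBD2 0.64 and CTCF 0.39 higher on the log2 scale. Lower were the cohesin gene SMC1A (14.4-fold), the heterochromatin gene CBX5 (7.21-fold) and the de novo methyltransferase DNMT3A (3.16-fold). CBX3, a heterochromatin gene, DNMT1, the maintenance methyltransferase, and UHRF1, which recruits it, were called lower with no KO count. CBX3 was at least 462-fold lower, DNMT1 at least 296-fold and UHRF1 at least 213-fold.

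Of 35 genes of IGF signalling, the pathway of IGF2, 20 were tested by edgeR. Of these 16 (80.0%) were lower, 1 was higher and 3 were not called, against 88% lower and 7.63% higher among all tested genes. No KO count was found for 8 of the 20 (40.0%), against 71.3% of all tested genes. The binding protein gene IGFBP4 was 24.3-fold lower, and 50.7-fold without KO replicate 1. IGF1R, the receptor that signals for IGF2, was 15.0-fold lower, and 31.0-fold without KO replicate 2. FOXO3, a transcription factor held in check by the pathway, was 4.04-fold lower. The adaptor SHC1, the kinase AKT1 and the binding protein IGFBP2 were called lower with no KO count, at least 280-fold, 191-fold and 178-fold.

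The genes whose levels ran most like MEST were NRN1, CPEB2, NOVA1, HNRNPA1L3 and ELAVL2, by the Euclidean distance of log2(CPM + 1) over the 6 libraries among 8904 tested genes. NRN1, which encodes the neurite-promoting protein neuritin, was nearest, at a distance of 0.586. It had 2640, 2205 and 2908 CPM in KO libraries, against 7.27, 7.66 and 7.32 CPM in WT libraries. CPEB2, an RNA-binding regulator of translation, followed at 2.30, with 1458, 1287 and 1553 CPM in KO libraries, against 4.69, 5.16 and 4.16 CPM in WT libraries. The neuronal RNA-binding protein genes NOVA1 and ELAVL2 were at distances of 2.43 and 2.94, and HNRNPA1L3 at 2.68. In all 5, which were picked over these same values, KO replicate 3 was the highest KO library and KO replicate 2 the lowest, as in MEST. The 18S share ran the other way, at 29.7%, 36.5% and 19.5% in KO replicates 1, 2 and 3, and its part in this order was not tested. Of the 3 other imprinted genes called higher, BLCAP had this order of KO libraries and GNAS and UBE3A did not. HNRNPA1L3 resembles other hnRNP A1 copies, with which reads can be shared.

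Transcript features were compared as a description. The longest MEST transcript (GENCODE v29) has 2505 bases and 46.4% GC. Tested genes with at least 10 counts in every KO library (1241, or 11.5%) had a median GC of 44.4% (quartiles 40.0% and 51.7%) and a median length of 4683 bases. Tested genes with no KO count had a median GC of 48.8% (quartiles 42.2% and 57.1%) and a median length of 3156 bases. The members at the high end of GC were CDKN1C at 63.8%, H19 at 63.4% and IGF2 at 60.5%. PEG10 at 44.8% and PEG3 at 43.5% had less GC than MEST, with lengths of 6618 and 8759 bases. The part of GC in the members' levels was not tested.

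Marker genes of the line were mostly at 0 in KO libraries. Of 14 noradrenergic neuroblastoma markers, 14 averaged over 1 CPM in WT cells and 5 had a KO count. Their summed level was 686 to 745 CPM in KO libraries and 6719 to 7655 CPM in WT libraries. Those at 0 in KO cells included CHGA, CHGB, DBH, DDC, GATA3, PHOX2A, RET and TH. Summed epithelial markers were 12.4 to 34.4 CPM in KO and 8.90 to 27.6 CPM in WT libraries. Of these, 6 of 7 had a KO count and KRT8 was at 0 in KO. Their KO counts were few: EPCAM 4, 0 and 0, ESRP1 6, 0 and 0, CDH1 0, 0 and 12, and CLDN4 0, 0 and 4. KRT18 had 0, 4 and 5 and KRT19 had 0, 21 and 4. Blood markers summed to 4.63 to 26.2 CPM in KO and 1.46 to 4.01 CPM in WT libraries. A KO count was found for 3 of 6, with CD14 and LYZ among those at 0 in KO. Markers of fibroblasts and endothelium summed to 33.6 to 95.1 CPM in KO and 151 to 166 CPM in WT libraries. A KO count was found for 4 of 5, and PDGFRA was at 0 in KO. Within that list the collagen gene COL1A1 was called the other way, at 47.8 ± 27.0 CPM in KO and 9.37 ± 2.09 CPM in WT cells (SD, n = 3 each, 5.10-fold higher, edgeR adjusted p 0.0019), and is named after its values were seen. COL1A2 also had a higher KO mean, at 18.4 ± 16.5 against 15.0 ± 1.64 CPM, but was not called and its libraries overlapped. So did PECAM1, with 0, 0 and 3 KO counts, which was not tested. PDGFRB was lower in KO, at 1.65 ± 2.85 against 45.0 ± 2.35 CPM. The placental markers CGA and KRT7 had no KO count, against a sum of 0.372 to 0.932 CPM in WT libraries. The part of other cell types in the values of the 10 genes was not tested.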

How the data were processed

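Poly(A) RNA of 3 OTULIN KO and 3 WT libraries of SH-SY5Y cells was analysed from 1 table. Per the file headers, each gene has 2 values in each library, a count and an FPKM. The counts are raw whole numbers as the authors deposited them. The FPKM values were made by the authors and scale by length and depth. Build hg38 and the tools HISAT2 2.0.4, StringTie 1.3.4d, cutadapt 1.9 and DESeq2 are listed, without roles, per the submitters' processing notes. The sources used here give neither annotation release nor strand setting, so overlapping genes and copies can share reads.

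Libraries were grouped by genotype in their titles. Each library counted as 1 sample. Replicate pairs differed by a chi-square of at least 16.9 per degree of freedom, with the 18S loci included. That scatter does not show whether replicates came from separate cultures. CPM used the total of all counts. KO and WT were compared over all 10820 genes averaging 1 FPKM or more, with edgeR 4.0.16 (quasi-likelihood, TMM factors, total counts as library sizes, R 4.3.3) and no term but genotype. A call needed an adjusted p (Benjamini-Hochberg) under 0.05. SE is the absolute log2 difference over the square root of F. Intervals are exact at 95% and cover counting error only. The alternatives were DESeq2 1.42.0, limma 3.58.1 on log2 values of the deposited FPKM, other factors and filters, thinned WT libraries, removal of 18S loci, a replicate block and leaving out each library. Tables and figures used Python 3.11.15, pandas 2.3.3, scipy 1.17.1 and matplotlib 3.10.9.

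The 10 members, the lists and the tests were chosen with earlier results of these data known. Named genes are the members, the genes within 250 kb of MEST, up to 4 called genes with the largest log2 difference in each direction per list among those with a count in at least 2 KO libraries, the 3 with the highest WT level per list among those at 0 in KO, and the 5 nearest to MEST, leaving out unnamed loci, antisense genes and pseudogenes. CpG sites and sequences came from RefSeq tables (GRCh38.p14), and transcript length and GC from GENCODE v29, which covered 98.0% of tested genes. A few genes that this rule or the marker lists name are not reported here.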

Additional observations from a re-analysis of the deposited data

How the results depend on the processing

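None of the 132 member values under 15 settings changed direction, which says little for members chosen on these values with few or no KO counts. DESeq2 was not among these 15 settings. In 6 of the 132 the call was lost, all with replicate number as a block. These were IGF2, DLK1, NNAT, CDKN1C, PEG3 and SNRPN, with edgeR adjusted p of 0.068 to 0.11. The log2 difference of MEST ranged from 7.68 to 8.64. Genes higher in KO numbered 792 to 847 and genes lower 9387 to 9534 when each library was left out in turn, and for the other imprinted genes 3 were higher and 21 to 22 lower. Without a filter, 41 of 67 other imprinted genes (61.2%) were lower, against 21 of 25 with it. Over all genes, 13986 of 32862 (42.6%) were lower without a filter, against 88% with it. With a mean of at least 5 FPKM, 3851 of 4719 genes were lower, against 9519 of 10820, and 8 of 12 other imprinted genes were lower. Fewer genes were tested there, and the shares also moved, to 81.6% against 88% of all genes and 66.7% against 84.0% of the other imprinted genes. The cause was not tested.

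Deviations of same-numbered libraries had r of 0.0489, -0.083 and 0.0773 over 1241 genes, and those of other pairs ran from -0.103 to 0.0998. With 3 libraries in each group, these values cannot settle whether the numbers pair the libraries. With replicate number as a block, 452 genes were higher and 289 lower, and of the other imprinted genes 2 were higher and 0 lower in edgeR. At an unadjusted p under 0.05, 14 of those 25 were lower under the block. The share of all tested genes at that p was not computed, so nothing is read from this count. DESeq2, run without the block, called 21 of the 25 lower (84%), against 89.2% of all tested genes, and does not bear on the block. Of the 25 genes named by the rule from the lists, 18 lost the call under the block, among them EED, MBD2, CTCF, CBX3, DNMT1 and UHRF1. Most calls over all tested genes were lost too, from 826 higher and 9519 lower to 452 and 289. Depth limits what a KO zero can show: 1 count is worth over 1 CPM there.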
